A study of Mus musculus with 8 samples.

Results

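The genes described here encode proteins of the small nuclear ribonucleoproteins (snRNPs) of the spliceosome. They are *Snrpc* and *Snrpa* of the U1 snRNP, *Snrpa1* and *Snrpb2* of the U2 snRNP, and *Snrpb*, *Snrpd1*, *Snrpd2*, *Snrpe*, *Snrpf* and *Snrpg* of the Sm core. Only the last 6 encode Sm proteins, so that the set is larger than the term Sm alone would give. The 10 genes were chosen by name, and every non-control array probe whose RefSeq accession belonged to one of them was taken, which gave 17 of the 55681 distinct probes (10 of 20660 genes with a matched symbol). The choice of *Snrpc* followed from measured father differences of these same embryos, and the father differences of the 17 probes are therefore given as a description and not as a test. All 17 probes passed the filter on low signals, and 16 of them were well above background on all 8 arrays. The remaining one, a probe of *Snrpc*, passed through the HOM-father arrays alone.

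Expression was measured in whole embryos at embryonic day 8.5 (E8.5), 1 embryo to an Agilent one-colour array. All 8 embryos were heterozygous for the Eedl7Rn5-1989SB allele on a C57bl6/129 background, and all mothers were wild type. Fathers were homozygous for that hypomorphic allele of *Eed* in 4 embryos (HOM father) and heterozygous in the other 4 (HET father), with 2 female and 2 male embryos in each group. EED is a core component of Polycomb repressive complex 2, which methylates histone H3 at lysine 27. The embryos came from fewer sires than there were embryos, and sires are not named in the labels, so a spread between embryos is not a spread between fathers. HOM-father replicates 3 and 4 share an identifier number in the labels, as do HET-father replicates 1 and 2. The meaning of that number is not stated. Each father group lay on a slide of its own, and slide and father cannot be told apart.

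The spliceosome removes introns from pre-mRNA. Its U1 snRNP binds the start of the intron, and the U2 snRNP binds the branch point. U1, U2, U4 and U5 share a ring of Sm proteins (B or its relative N, D1, D2, D3, E, F and G) closed around the snRNA, and the SMN complex loads this ring in the cytoplasm. These genes are expressed in practically every cell type, and their transcripts have given rise to many retrotransposed copies in mammalian genomes.

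Between 51.9% and 60.8% of spots were well above background on an array. All 12 embryo markers examined, among them *T*, *Nkx2-5*, *Otx2* and *Hbb-bh1*, were well above background on all arrays by at least 1 probe. Of 8 genes of yolk sac, trophoblast and decidua, 7 were as well, and *Tpbpa* was above background on 0 of 8 arrays. The summed level of these 8 genes ran from 7.82 to 8.06 in HOM-father arrays and from 8.00 to 8.14 in HET-father arrays, and that of the embryo markers from 8.90 to 9.20 and from 9.23 to 9.36 (log2, relative to the 75th percentile of the array). These sums are set by the brightest genes. Single markers did not share a direction. The yolk sac gene *Apoa1* was lower with HOM fathers, at 3.92 compared with 4.33 (adjusted p = 0.014, limma). The yolk sac genes *Afp* (6.99 compared with 7.11) and *Ttr* (6.09 compared with 6.24) did not pass (adjusted p = 0.53 and 0.21, limma). Of trophoblast genes, 1 probe of *Gcm1* was lower, at 3.03 compared with 4.10 (adjusted p = 0.022, limma). Its further bright probes read 2.71 compared with 3.70 and -0.63 compared with -0.28, and did not pass (adjusted p = 0.053 and 0.10, limma). A *Gcm1* probe above background on 1 array went the other way, at -5.52 compared with -6.04. Both probes of *Prl3d1* had higher means with HOM fathers, 0.61 compared with -1.27 and -3.73 compared with -4.80. Neither *Prl3d1* probe passed the test (adjusted p = 0.21 and 0.37, limma), and the dimmer was above background on 5 of 8 arrays. The decidual gene *Prl8a2* ran from -3.99 to 4.45 between embryos, with overlap of the groups. The part of tissue makeup in the differences below was not tested, and in whole embryos a smaller share of a cell type and less RNA per cell cannot be told apart.

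*Snrpc* encodes the C protein of U1, which steadies the pairing of U1 with the 5′ splice site, and its 2 probes gave unequal differences between the father groups. Levels are given as normalised log2 signal, that is log2 of the processed intensity minus the 75th percentile of the array. Probe A_55_P2153633 read -3.30, -3.38, -3.35 and -3.10 in the 4 HOM-father embryos and -5.56, -6.64, -6.49 and -6.17 in the 4 HET-father embryos. Every HOM-father array was above every HET-father array. The probe was well above background on 4 of 4 HOM-father arrays and on 0 of 4 HET-father arrays. The HET-father level is therefore only an upper limit, and the size of the difference is uncertain. A value of 7.61-fold was obtained with the HOM-father mean set against a limited HET-father level. That level was, per HET-father array, the higher of the probe's own signal and the lowest signal called well above background. This limit hardly moved the measured log2 difference (2.929 compared with 2.934), so 7.61-fold is not a firm minimum. The measured means were -3.28 ± 0.13 and -6.22 ± 0.48 (SD, n = 4 each), a log2 difference of 2.93. With normexp background correction the log2 difference was 1.13.

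The other *Snrpc* probe, A_55_P1954001, was well above background on all arrays. It read 3.97, 4.15, 4.03 and 4.13 in HOM-father embryos and 4.33, 4.15, 4.27 and 4.21 in HET-father embryos. The groups overlapped, with a log2 difference of -0.17 (95% interval -0.32 to -0.02). Both probes carry the same RefSeq accession, NM_011432, in the array design.

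**Figure D1:**
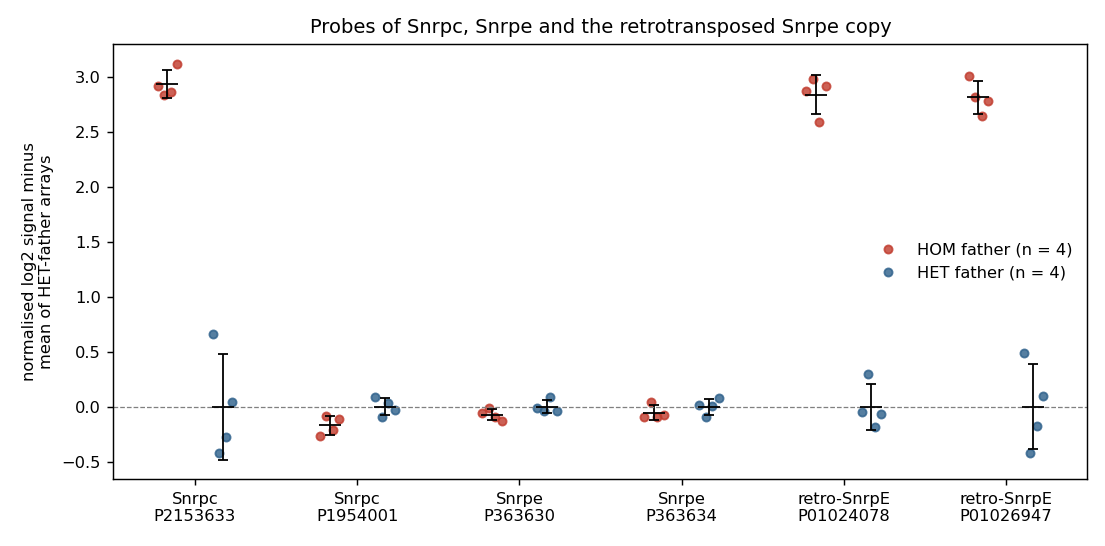
Normalised log2 signal of 6 probes on each of the 8 arrays, with the mean of the HET-father arrays subtracted for each probe; points are embryos, bars are the mean and SD of 4. The HOM-father points of Snrpc probe P2153633 and of both retro-SnrpE probes lie well above the HET-father points, whereas those of the other Snrpc probe and of both Snrpe probes overlap with them.

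Of all 55681 probes, 53 cleared background on the 4 HOM-father arrays and on no HET-father array, and 3 showed the reverse. The dim *Snrpc* probe is 1 of the 53. Of the 16 bright member probes, 0 passed an adjusted p below 0.01 with a change of at least 2-fold (limma). Over all tested probes 1.24% passed as higher and 0.0269% as lower. The dim probe is among the former, which is no test of it, since its father difference led to its choice and it entered the fit through the HOM-father arrays alone.

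The arrays on which the dim *Snrpc* probe was highest or lowest within its father group were compared with all other tested probes that have a gene symbol. Over the deviations of the 8 arrays from their group means, the most alike were probes of *Slc8a3* (Pearson r = 0.994), *Esm1* (r = 0.975), *Rpl4* (r = 0.972), *Cdv3* (r = 0.970) and *Mettl5* (r = 0.958). The HET-father arrays carry most of these deviations for the *Snrpc* probe, with an SD of 0.48 against 0.13, and they are the arrays on which it was not above background. These values are a description over 8 arrays that share slides and scaling.

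The annotated upstream sequence of *Snrpc* is shown together with that of *Snrpd2*, whose 3 probes all shifted with the father, because both carry the letters most common to the set. Each run gives the 250 bases before the RefSeq start in GRCm38.p6, 5′ to 3′ on the gene's strand, with CGGAAG in capitals. The *Snrpc* window is chr17:27839837-27840086 (+) and the *Snrpd2* window is chr7:19149588-19149837 (+).
Snrpc: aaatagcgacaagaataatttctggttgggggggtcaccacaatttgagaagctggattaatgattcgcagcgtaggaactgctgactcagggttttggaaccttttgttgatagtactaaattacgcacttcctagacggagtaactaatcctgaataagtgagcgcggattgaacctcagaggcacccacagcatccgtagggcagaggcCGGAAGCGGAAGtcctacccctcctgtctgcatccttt
Snrpd2: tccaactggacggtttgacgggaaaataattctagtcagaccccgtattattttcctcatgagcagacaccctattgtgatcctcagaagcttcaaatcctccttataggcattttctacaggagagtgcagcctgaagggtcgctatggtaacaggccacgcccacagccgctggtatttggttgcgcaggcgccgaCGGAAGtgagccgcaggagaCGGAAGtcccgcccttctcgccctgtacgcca

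CGGAAG, the core of sites bound by ETS factors, occurred 2 times in each window. In *Snrpc* the copies start 38 and 32 bases before the start and abut each other, and in *Snrpd2* they start 52 and 32 bases before it. Windows were found for 8 of the 10 genes, 9 windows in all since *Snrpa* has 2, and not for *Snrpb* and *Snrpd1*. On either strand CGGAAG occurred in 7 of the 8 genes (*Snrpa*, *Snrpa1*, *Snrpb2*, *Snrpc*, *Snrpd2*, *Snrpe* and *Snrpg*), compared with 13.6% of all 32851 windows. CCAAT was present in *Snrpf* and *Snrpg*, compared with 33.8% of all windows, and TATAAA in *Snrpa*, compared with 12.4%. Neither AAGATGGC (YY1) nor GCATGCGC (NRF1) was found in these windows, and no motif searched contains another. The member windows held a median of 15 CG dinucleotides and 54.0% G and C, compared with 6 and 52.4% over all windows. These are matches of letters and not measured binding.

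*Snrpe* encodes SmE, which joins SmF and SmG before the ring is closed, and was measured by 2 bright probes. Probe A_51_P363630 read 6.48, 6.52, 6.45 and 6.41 with HOM fathers and 6.53, 6.50, 6.63 and 6.50 with HET fathers. Probe A_51_P363634 read 5.21, 5.35, 5.22 and 5.23 with HOM fathers and 5.32, 5.21, 5.31 and 5.39 with HET fathers. The groups overlapped for both probes, with log2 differences of -0.07 (95% interval -0.19 to 0.04) and -0.05 (-0.19 to 0.08).

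A pair of lincRNA probes are tied by the study to a retrotransposed copy of *Snrpe* (retro-SnrpE) on chromosome 12. The array design names them by the interval chr12:111287772-111333890 of build mm9, forward strand. Probe A_30_P01024078 read -1.36, -1.25, -1.64 and -1.32 with HOM fathers and -4.28, -3.93, -4.41 and -4.30 with HET fathers. Probe A_30_P01026947 read -0.52, -0.71, -0.88 and -0.75 with HOM fathers and -3.04, -3.95, -3.70 and -3.43 with HET fathers. Both were well above background on all 8 arrays, the groups did not overlap, and the mean signals were 7.16-fold and 7.03-fold higher with HOM fathers. These probes too had been chosen for their father difference. The bright *Snrpe* probes did not show a shift of that size, their intervals ending at 0.04 and 0.08.

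The same interval is covered by 18 probes, 10 on the forward and 8 on the reverse strand. Of these, 3 were tested, all on the forward strand, and 11 did not clear background anywhere. The third tested probe, A_30_P01030769, read between -0.22 and 0.04 with HOM fathers and between -2.08 and -1.68 with HET fathers, a log2 difference of 1.77. It was named because it shares the interval.

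The Sm ring genes had slightly lower mean signals in embryos of HOM fathers, although 3 of their 11 probes (1 each of *Snrpd1*, *Snrpe* and *Snrpg*) turned to small positive differences with quantile normalisation. With the 75th percentile all 11 log2 differences were negative, from -0.32 to -0.05 with a median of -0.11, compared with a median of -0.02 over all 29732 tested probes. Cytosolic ribosomal protein genes had a median of -0.12 and other spliceosome genes one of -0.09. With quantile normalisation the median of the ring probes was -0.04, level with the -0.04 over all tested probes. With the 75th percentile, *Snrpd2*, which encodes SmD2, showed the largest difference of the ring genes. Its probe A_55_P2177968 read 5.61, 5.88, 5.73 and 5.78 with HOM fathers and 6.16, 6.03, 6.10 and 5.998 with HET fathers. All HOM-father arrays were below all HET-father arrays, with means of 5.75 ± 0.11 and 6.07 ± 0.07 (SD, n = 4 each), a 1.25-fold lower signal.

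The other *Snrpd2* probes moved by similar amounts. Probe A_55_P1954212 read 5.56, 5.76, 5.69 and 5.67 with HOM fathers and 5.98, 5.97, 6.03 and 5.91 with HET fathers, a log2 difference of -0.30. Probe A_55_P2088535, the brightest, read between 6.05 and 6.23 with HOM fathers and between 6.30 and 6.40 with HET fathers, a log2 difference of -0.22. None of these groups overlapped, and the 3 probes share 1 transcript and are not 3 independent measurements.

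*Snrpg*, which encodes SmG, gave unequal shifts by its 2 probes. Probe A_55_P2007303 read 6.57, 6.66, 6.52 and 6.65 with HOM fathers and 6.87, 6.78, 6.90 and 6.90 with HET fathers, a log2 difference of -0.26 without overlap. Probe A_55_P1990081 read 6.97, 7.12, 6.98 and 7.15 with HOM fathers and 7.17, 7.03, 7.22 and 7.18 with HET fathers, a log2 difference of -0.09 with overlap. On each array the second minus the first lay between 0.41 and 0.51 with HOM fathers and between 0.25 and 0.32 with HET fathers.

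*Snrpd1* (SmD1) differed by -0.19 through A_55_P1971448, which lay between 5.66 and 5.84 with HOM fathers and between 5.87 and 6.04 with HET fathers. Its probe A_66_P125067 differed by -0.07 with wide overlap (3.41 to 3.78 and 3.45 to 3.86). *Snrpb*, which encodes SmB, lay between 3.71 and 3.91 with HOM fathers and between 3.87 and 3.98 with HET fathers, a difference of -0.11. *Snrpf* (SmF) lay between 4.59 and 4.67 and between 4.64 and 4.81, a difference of -0.09. In these last 3 the groups overlapped.

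The U1 and U2 genes showed no common direction, although with median scaling all of their bright probes were lower. *Snrpa* encodes the A protein of U1, which binds a loop of U1 snRNA, and read 4.73, 4.82, 4.75 and 4.73 with HOM fathers and 4.93, 4.96, 5.08 and 5.06 with HET fathers. The groups did not overlap, with a log2 difference of -0.25. *Snrpa1* encodes a leucine-rich repeat protein of U2, and its probes differed by 0.02 (A_55_P2113208, 4.89 to 5.09 and 4.85 to 5.004) and by 0.11 (A_55_P2120652), both with overlap, and by -0.17 and -0.09 with median scaling. *Snrpb2* encodes the RNA-binding protein that pairs with it, and differed by -0.08, from 4.73 to 4.89 with HOM fathers and from 4.83 to 4.92 with HET fathers.

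**Figure D2:**
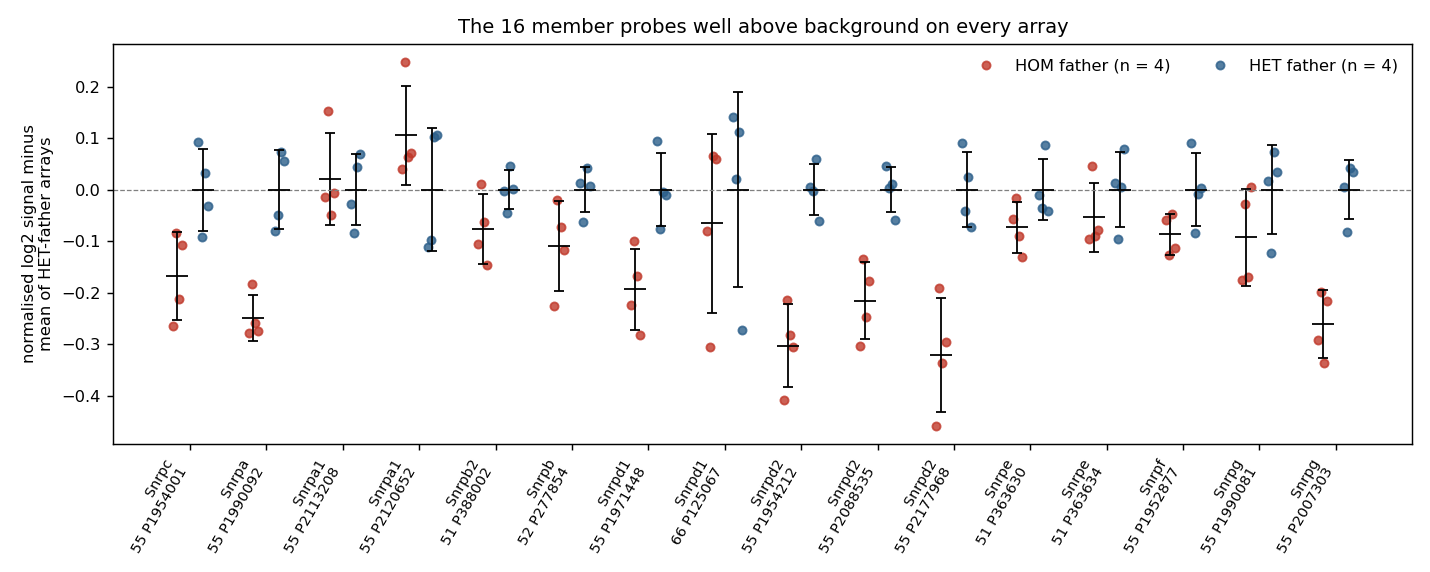
Normalised log2 signal of the 16 bright member probes on each array, with the mean of the HET-father arrays subtracted for each probe; points are embryos, bars are the mean and SD of 4 embryos. The HOM-father points of Snrpa, the 3 Snrpd2 probes, Snrpd1 probe P1971448 and Snrpg probe P2007303 lie below all HET-father points, by less than 0.5 in all.

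Over the 17 probes, 1 lay wholly higher with HOM fathers and 6 wholly lower. Of all tested probes 14.1% lay wholly higher and 13.0% wholly lower. At an adjusted p below 0.05 (limma), 1 member probe was higher, where 12.3% of tested probes were, and 5 were lower, where 8.69% were. The 5 were the probes of *Snrpa*, of *Snrpd2* (3 probes) and of *Snrpg* (A_55_P2007303), and none of them reached 2-fold. Nothing is read from these counts, since the members were chosen with this contrast in view. The scaling bears on values of this size. The array median lay between -4.10 and -3.91 with HOM fathers and between -4.25 and -4.16 with HET fathers, relative to the 75th percentile. Scaling by the median moved the median of all tested probes to -0.21 and gave 13 lower member probes, among 10350 lower and 2339 higher probes of all tested (2583 and 3662 with the 75th percentile). Quantile normalisation gave 4 lower member probes and a median of the 16 bright probes of -0.03, level with the -0.04 over all tested probes, with *Snrpe* A_51_P363634 at 0.03, *Snrpg* A_55_P1990081 at 0.02 and *Snrpd1* A_66_P125067 at 0.01. The 5 probes kept their sign under all alternatives run.

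**Figure D3:**
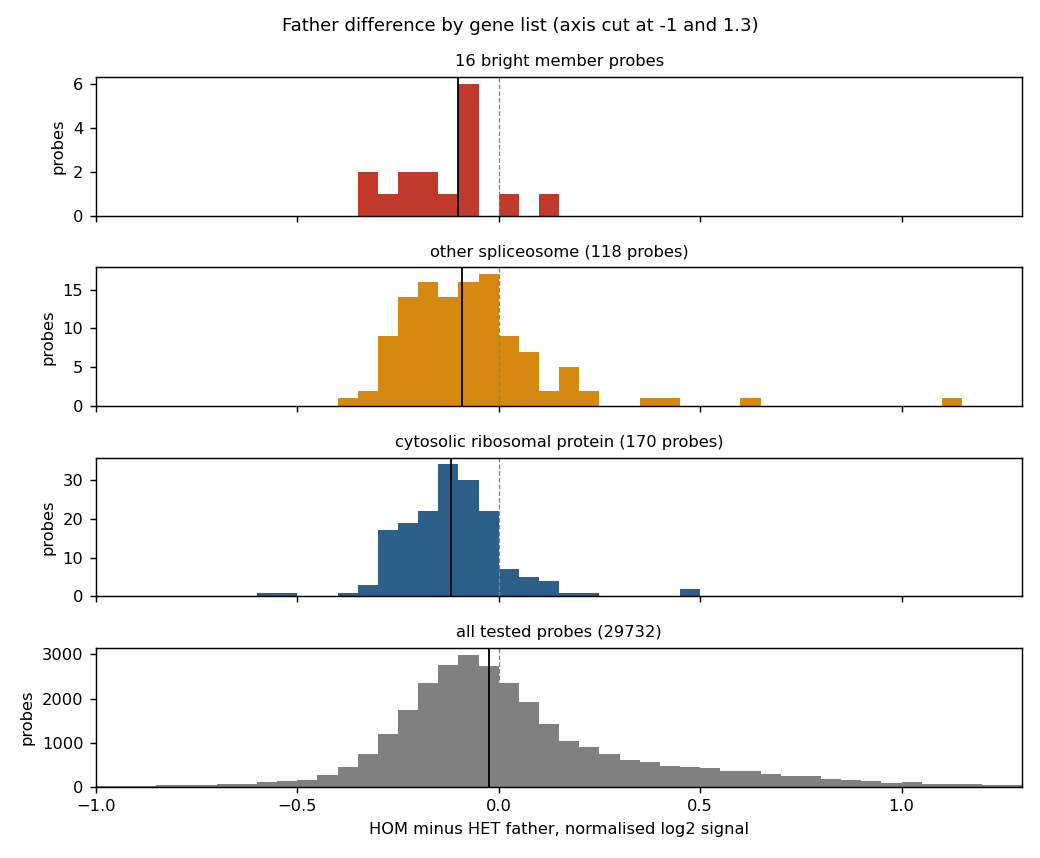
Histograms of the HOM minus HET father difference in normalised log2 signal for the 16 bright member probes, 118 probes of other spliceosome genes, 170 probes of cytosolic ribosomal protein genes and all 29732 tested probes; the black line is the median of each list and the axis is cut at -1 and 1.3. The medians of the first 3 lists lie at -0.10, -0.09 and -0.12, to the left of -0.02 for all tested probes.

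The rest of the spliceosome was followed through 80 further genes with 119 probes, of which 118 were tested. Of these, 29 fell and 4 rose at an adjusted p below 0.05 (limma), where 8.69% of all tested probes were lower and 12.3% higher, and none reached 2-fold at an adjusted p below 0.01. The median log2 difference was -0.09, and the values ran from -0.37 to 1.12, the highest of which did not pass the test. Cytosolic ribosomal protein genes gave 41 lower and 1 higher of 170 tested probes, with a median of -0.12. By class, 6 of 15 probes of LSm genes fell, as did 5 of 17 of U2 genes, 5 of 13 of the minor spliceosome, 6 of 24 of U4/U6.U5 genes, 3 of 12 of Sm and U1 genes, 3 of 25 of Sm core assembly genes and 1 of 12 of Prp19 and related genes. Scaling by the median gave 69 lower and 1 higher, and quantile normalisation 18 and 5. The class counts moved with them, for LSm genes to 12 and 3, for U2 genes to 13 and 2 and for U4/U6.U5 genes to 14 and 2 lower probes. The count of lower probes changed when single libraries were left out. It was 10, 11 and 12 without HOM-father replicates 1, 3 and 4, and 17, 8 and 11 without HET-father replicates 1, 3 and 4. Without HOM-father replicate 2 it was 29, and without HET-father replicate 2 it was 21. How far the smaller number of embryos in such a fit lowers the count was not tested.

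*Snrpd3* and *Snrpn* encode ring proteins outside the chosen set. *Snrpd3* fell most, from 5.38 ± 0.08 to 5.01 ± 0.06 (SD, n = 4 each, adjusted p = 0.0045, limma), whereas the 3 probes of *Snrpn* gave -0.06, 0.04 and -0.09 (adjusted p = 0.59, 0.79 and 0.38). *Snrnp25* of the minor spliceosome fell by 0.35 ± 0.09 (SE, adjusted p = 0.028, limma), a call that held only when HOM-father replicate 2 was the library left out, and its other probe fell by 0.23. *Lsm3*, a subunit of the LSm rings, fell by 0.31 ± 0.06 (adjusted p = 0.014). *U2af2*, which recognises the polypyrimidine tract, fell by 0.30 ± 0.07 (adjusted p = 0.022), but its other probe gave -0.12 (adjusted p = 0.28), and the call was lost without HOM-father replicate 1 (0.052), HET-father replicate 3 (0.062) or HET-father replicate 4 (0.059) and with normexp (0.11). *Prmt5*, which methylates Sm proteins before the ring is loaded, fell by 0.29 ± 0.05 (adjusted p = 0.0092).

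The probes that rose belonged to *Gemin6* (0.63 ± 0.07, SE, adjusted p = 8.33e-04, limma), *Sart1* (0.41 ± 0.07, adjusted p = 0.0080), *Gemin8* (0.36 ± 0.08, adjusted p = 0.016) and *Prpf39* (0.20 ± 0.04, adjusted p = 0.013). GEMIN6 and GEMIN8 are parts of the SMN complex, SART1 belongs to the U4/U6.U5 tri-snRNP, and PRPF39 works with U1. The second probe of *Gemin6* gave -0.01 (adjusted p = 0.93), that of *Gemin8* 0.17 (adjusted p = 0.17) and that of *Prpf39* -0.05 (adjusted p = 0.66). With median scaling *Gemin6* still passed, whereas *Sart1* (adjusted p = 0.055), *Gemin8* (0.18) and *Prpf39* (0.94) did not. *Gemin6*, *Gemin8* and *Prpf39* thus each had 1 probe called higher and 1 that did not pass the test, which for *Gemin8* also had a higher mean.

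Embryo sex is a contrast that the choice of members did not use. With father as a covariate, 0 of 17 member probes differed between females and males at an adjusted p below 0.05, where 0.121% of all tested probes did, and 0 passed an unadjusted p below 0.05. The lowest adjusted p among them was 0.914 (limma), and with the trend and robust variance the count was also 0. The difference was positive in 16 of 17 probes, with a median of 0.04 on the log2 scale, compared with 0.01 over all tested probes. The medians of other spliceosome genes (0.03) and of ribosomal protein genes (0.04) were alike. Several member probes share a gene, so this count is not one of independent measurements. For the 16 bright probes the bounds of the 95% intervals ran from -0.30 to 0.30. *Snrpe* A_51_P363630 differed by 0.08 (95% interval -0.03 to 0.18) and *Snrpd1* A_55_P1971448 by 0.08 (-0.06 to 0.21). For the dim *Snrpc* probe the difference was 0.13, with the widest interval, -0.42 to 0.69, and 4 of its 8 values are readings not well above background.

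**Figure D4:**
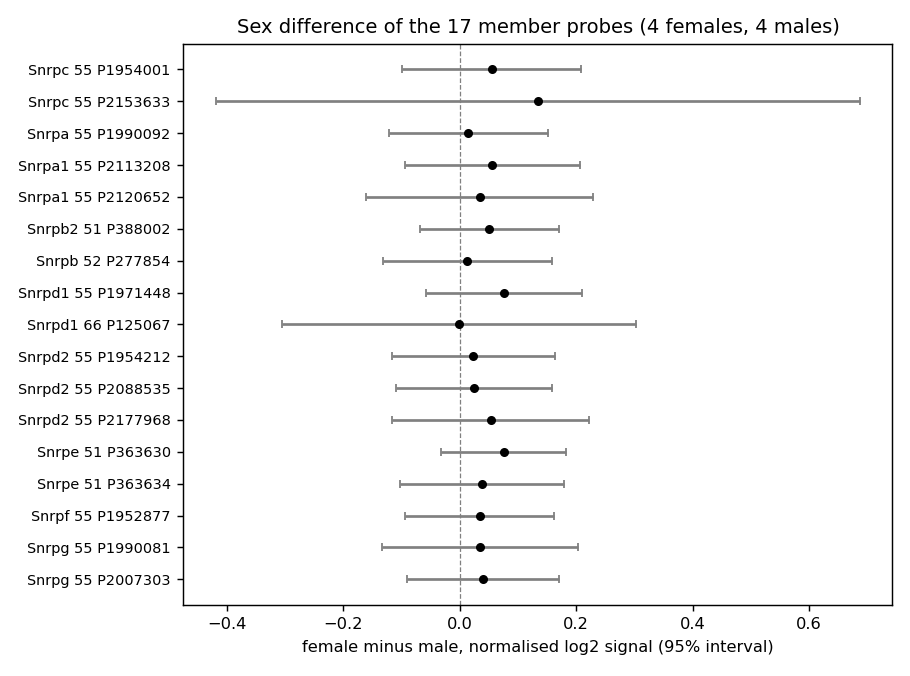
Female minus male difference in normalised log2 signal (x axis) for each of the 17 member probes (rows), with 95% intervals from limma with father as a covariate, 4 females and 4 males. All intervals include 0, and that of the dim Snrpc probe, from -0.42 to 0.69, is the widest.

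The father difference of the members was next compared between the sexes, with 2 embryos per father and sex. At an adjusted p below 0.05 the interaction passed in 0 of 17 member probes, where 0.0639% of all tested probes passed. At an unadjusted p below 0.05 it passed in 1, *Snrpd1* A_66_P125067, whose father difference was -0.32 in females and 0.19 in males (interaction -0.51 ± 0.18, SE, adjusted p = 1.00, limma). For the dim *Snrpc* probe no size is given by sex, since it has only a limit with HET fathers. *Snrpa* differed by -0.23 and -0.27, and *Snrpd2* A_55_P2177968 by -0.38 and -0.26.

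Apart from the father, the bright member probes varied little from embryo to embryo. Their residual SD within father groups ran from 0.054 to 0.182 on the log2 scale, with a median of 0.070, compared with 0.129 over all tested probes. The medians of other spliceosome genes (0.078) and of ribosomal protein genes (0.079) were close to it. In 15 of 16 it lay in the lower part of the distribution, below the median, and the exception was *Snrpd1* A_66_P125067. Within a father group the probes tended to lie high or low together. In HOM-father replicate 2, 14 of 16 probes were above their group mean, and in replicate 1 of that group 2 of 16 were. In HET-father replicate 3, 14 of 16 were above, and in replicate 2 of that group 2 of 16 were. The median deviation of the 16 probes on an array ran from -0.07 to 0.09, and that of the ribosomal protein probes from -0.09 to 0.07. Over the 120 pairs of the 16 probes the median correlation of these deviations was 0.45, with 104 pairs above 0, over 8 arrays that share their scaling. Some of these pairs are probes of the same gene, and the correlation was not taken over other lists for comparison.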

How the data were processed

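Single E8.5 embryos (4 per father group) were each measured on 1 Agilent one-colour array. Per the labels, 0.2 µg of DNase-treated RNA was labelled with Cy3. The deposited intensities were made by the authors with Agilent Feature Extraction 11.0.1.1 (background-subtracted, not normalised between arrays), and the other deposited columns used are spot flags of 0 or 1. The authors' series table holds the same processed intensities, rounded.

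Outlier-flagged spots were removed, and no spot was saturated. The log2 of the processed signal minus the 75th percentile of the array was averaged over spots of 1 probe, with each probe treated separately. Testing required a signal well above background, and not below the 20th percentile, on at least 4 arrays (29732 of 55681 probes, 53.4%). Accessions were matched to RefSeq symbols (GRCm38.p6) for 27235 probes. The array number limits the precision, and p-values measure only the spread between these embryos.

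Father, sex (father as covariate) and their interaction were fitted with limma 3.58.1 in R 4.3.3, two-sided, with Benjamini-Hochberg adjustment over all tested probes. The calls were an adjusted p below 0.01 with 2-fold, as in the study's methods, and an adjusted p below 0.05. The fit was tested on simulated data. The normexp alternative (offset 50) used median spot and background signals, the files holding no mean signal, although the mean had been planned. Other alternatives were quantile and median scaling, no filter, a stricter filter, trend and robust variance, the series table, each library left out, and blocks by replicate number, slide position and identifier number.

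The members and lists were chosen with earlier results of these data known. The text names all probes of *Snrpc* and *Snrpe*, member probes past an adjusted p of 0.05, the brightest probe of each other member, both retro-SnrpE probes, up to 5 other spliceosome probes per direction, and the 5 probes most like the dim *Snrpc* probe. Others were named after their values were seen. Probe sequences were not used here.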

Additional observations from a re-analysis of the deposited data

Results flagged for a closer look

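In 4 of 56 groups of 4 embryos examined 1 embryo lay far from the other three (by Dixon's ratio of the gap to its nearest neighbour over the group's range), where chance gives about 1 in 20 groups. Among the members, *Snrpa1* A_55_P2120652 read 5.01 in HOM-father replicate 2, compared with 4.80 to 4.83 in the rest of that group. *Snrpe* A_51_P363634 read 5.35 in the same embryo, compared with 5.21 to 5.23. Among the other spliceosome genes, *Gemin6* A_55_P2095784 read -1.87 in that embryo, compared with -2.01 to -1.99. *Snrpd3* A_55_P2008747 read 5.26 in HET-father replicate 2, compared with 5.42 to 5.43. These are normalised log2 signals.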

How the results depend on the processing

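The dim *Snrpc* probe was called at an adjusted p below 0.01 and 2-fold under all alternatives in which it was tested. These repeated calls are no test of it, since its father difference led to its choice and it passed the filter through the HOM-father arrays alone. Restriction to probes well above background on all arrays removed it, so that the count of such member probes was 0. Without single libraries that count was 1 and the log2 difference 2.79 to 3.15, and normexp correction gave 1.13. The count of lower member probes at an adjusted p below 0.05 (5) was 13 with median scaling and 4 to 6 without single libraries. It was 0 with no filter, where all 55681 probes enter both the fit and the adjustment. For other spliceosome genes the 29 lower probes became 18 with quantile normalisation, 69 with median scaling, 2 with no filter, 19 with the identifier number as a random block, and 8 to 29 without single libraries. The 4 higher probes became 1 with median scaling, 2 with no filter, and 4 to 5 without single libraries. The cause of these changes was not tested. The counts of 0 for sex and interaction did not change under any alternative run.

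As a block, the replicate number gave 1 lower member probe, and 5 lower and 3 higher probes of other spliceosome genes. Same-numbered embryos did not deviate together (correlations of 0.19, -0.09, -0.13 and 0.15 over tested probes), and the numbers were not taken as pairs. Nearness to background leaves only an upper limit for the dim *Snrpc* probe with HET fathers, and the size of its difference is uncertain.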
